A study of Mus musculus with 32 samples.

Results

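The M-CSF by LPS interaction compares, gene by gene, the response of wild-type (WT) macrophages to LPS in low M-CSF with their response in normal M-CSF. It is the log2 change with LPS in low M-CSF minus the log2 change with LPS in normal M-CSF, so a positive value means that the gene rose more, or fell less, with LPS in low M-CSF. It was measured in 16 of the 32 libraries of the series, chosen by the genotype, mcsf and treatment labels, with 4 libraries in each of 4 groups. The groups were WT low M-CSF with LPS, WT low M-CSF without LPS, WT normal M-CSF with LPS and WT normal M-CSF without LPS. All 16 libraries came from cultured bone marrow-derived macrophages of WT mice of the C57BL/6 strain. The other 16 libraries came from T2KO cells, the labels' name for Trem2-/- macrophages, and entered the fit and a test of whether the interaction depended on genotype. Per the labels' protocols, cells spent a night in complete RPMI that held LCCM at 0.5% or at 10%, and the stimulated cells received 10 ng/ml of LPS for 4 hours. No label ties the names low and normal to those percentages, so reading low as 0.5% is an inference. Nothing in the labels says that libraries sharing a group stem from different animals or cultures, so p-values measure the spread between these libraries, which may be technical.

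M-CSF, the product of Csf1, binds the receptor Csf1r and through kinase signalling keeps macrophages alive, growing and able to divide. LPS is a component of the outer membrane of Gram-negative bacteria that macrophages sense through Cd14, Ly96 and Tlr4, and it switches on NF-kB and interferon target genes within hours. M-CSF is known to shape how strongly macrophages answer LPS and how they use glucose, sterols and amino acids. An interaction on the log2 scale compares ratios, so it can come from a different stimulated level, a different starting level or both.

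Polyadenylated RNA was read from barcoded oligo-dT libraries amplified by 12 PCR cycles, for which no molecular identifiers are mentioned, so counting intervals and floors cover counting error only. Total counts per library were 3111552 to 4547552 in low M-CSF with LPS, 4929113 to 6802071 in low M-CSF without LPS, 4137581 to 11415752 in normal M-CSF with LPS and 5554661 to 12995945 in normal M-CSF without LPS. Levels are CPM, counts scaled to a common library size, here the total corrected with TMM factors. Those factors were 0.664 to 0.752, 1.15 to 1.23, 0.911 to 1.01 and 1.27 to 1.37 in the same order of groups, and the 20 most abundant genes took 17.9% to 18.5%, 10.2% to 11.04%, 14.3% to 14.7% and 11.6% to 12.7% of the counts. Of the macrophage markers, Csf1r, Adgre1, Cd68, Itgam, Fcgr1 and Lyz2 lay between 62.9 and 5908 CPM in all 16 libraries, while Mertk, a receptor for dying cells, lay between 1.39 and 31.2 CPM. The defining markers Cd3e, Ncr1 and Fcer1a of lymphocytes and mast cells had no count in any WT library. Within each group, library 1 resembled library 3, and library 2 resembled library 4, more than the other pairs did as a rule. The chi-square of their counts per degree of freedom was 4.03 to 37.3 in those 8 pairs and 9.73 to 81.5 in the other 16 pairs. All pairs differed by more than sampling noise, so all libraries were kept, and counts are also given with libraries 1 and 3 summed and libraries 2 and 4 summed, which leaves 2 values a group.

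The response to LPS differed with the medium for 2649 of the 11244 genes tested (23.6%; edgeR quasi-likelihood test, Benjamini-Hochberg adjusted p under 0.05). It was higher in low M-CSF for 1206 genes (10.7%) and lower for 1443 (12.8%), and the median over all genes was -0.14 on the log2 scale. The higher genes differed by a median of 1.22 on the log2 scale and the lower genes by 1.40. Which direction held more genes depended on the scaling. With RLE size factors in place of TMM factors 1359 were higher and 1215 lower, and by DESeq2 1509 were higher and 1386 lower. With library totals alone in place of TMM factors, a setting added after the data were seen, the median over all genes moved to -0.47. The split there was 658 higher and 2688 lower. All 2649 genes kept their direction there, as they did in every other setting in which they were tested. With the library pairs summed, 853 of 12020 genes passed (7.10%), 382 higher and 471 lower. In a bulk sample, fewer cells of a type and less RNA per cell cannot be told apart.

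LPS changed more genes in low M-CSF than in normal M-CSF. It changed 6824 genes in low M-CSF (60.7%), 3041 upward (27%) and 3783 downward (33.6%), and 4061 genes in normal M-CSF (36.1%), 2053 upward (18.3%) and 2008 downward (17.9%). Of the 1206 genes with a higher interaction, 604 rose with LPS in both media and 483 rose in low M-CSF without a call in normal M-CSF. Another 64 fell only in normal M-CSF by these calls, 31 rose in low and fell in normal M-CSF, 10 fell in both and 14 passed in neither. Of the 1443 genes with a lower interaction, 776 fell in low M-CSF without a call in normal M-CSF and 544 fell in both. Another 54 rose only in normal M-CSF by these calls, 36 rose in both, 16 fell in low and rose in normal M-CSF, and 17 passed in neither.

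The same interaction can be read along the medium. Low and normal M-CSF differed for 5132 genes with LPS (45.6%) and for 4983 genes without LPS (44.3%). Among the 1206 higher genes, 524 had no called difference between media without LPS and stood higher in low M-CSF with LPS. A further 350 stood lower in low M-CSF without LPS and had no called difference with LPS, which does not show that their stimulated levels were equal. For 185 genes the order of the media turned round, from lower in low M-CSF without LPS to higher with LPS. Among the 1443 lower genes, 524 had no called difference without LPS and stood lower in low M-CSF with LPS, 477 stood higher in low M-CSF without LPS and had no called difference with LPS, and 150 changed order.

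**Figure D1:**
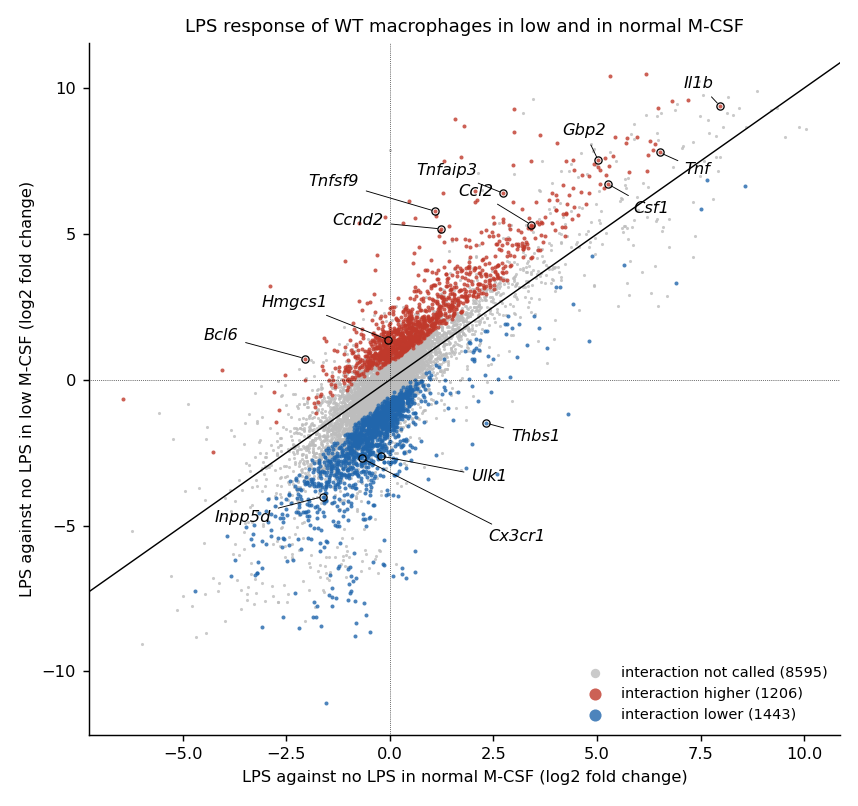
Log2 fold change with LPS in low M-CSF (vertical axis) against that in normal M-CSF (horizontal axis) for the 11244 genes tested; the diagonal marks an equal response. Red points are the 1206 genes with a higher interaction, blue points the 1443 with a lower one, and grey points the 8595 without a call.

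Cytokines are textbook targets of LPS. Of the cytokine list, 10 of 23 members had a higher interaction and 2 a lower one, with a median of 1.29 against -0.14 over all genes. LPS raised 22 of the 23 in each medium, against 27% and 18.3% of all genes in low and normal M-CSF. Tnf read 2071, 2728, 2318 and 3093 CPM with LPS and 10.7, 11.9, 10.1 and 13.3 CPM without LPS in low M-CSF. In normal M-CSF, Tnf read 2494, 2887, 2744 and 2909.9 CPM with LPS and 37.1, 24.9, 31.0 and 28.0 CPM without LPS. Tnf encodes the cytokine that starts much of the inflammatory cascade. Its libraries with LPS overlapped between media, while every unstimulated library in low M-CSF lay below every one in normal M-CSF. The log2 interaction was 1.29 ± 0.23 (SE), adjusted p = 7.43e-05. Il1b read 9374, 8621, 9257 and 9555 CPM with LPS and 14.04, 15.9, 14.5 and 9.90 CPM without LPS in low M-CSF. In normal M-CSF, Il1b read 2517, 3473, 2869 and 3886 CPM with LPS and 16.9, 13.2, 5.66 and 15.5 CPM without LPS. Il1b, the precursor of a fever-inducing cytokine, showed the other arrangement, with overlapping unstimulated libraries and stimulated libraries in low M-CSF above all those in normal M-CSF. Its log2 interaction was 1.44 ± 0.38 (SE), adjusted p = 0.00578, and with the library pairs summed its adjusted p was 0.0715. Tnfsf9 read 184, 218, 269.9 and 270.0 CPM with LPS and 4.47, 6.02, 3.21 and 3.19 CPM without LPS in low M-CSF. In normal M-CSF, Tnfsf9 read 42.3, 56.2, 44.2 and 60.4 CPM with LPS and 9.48, 25.1, 21.7 and 39.8 CPM without LPS. Tnfsf9, the ligand of a T cell costimulatory receptor, had the largest positive log2 interaction, 4.69 ± 0.37 (SE), adjusted p = 2.07e-11, among called genes that averaged at least 1 CPM in every group and 20 CPM in the highest, here called the level rule. The media changed order with LPS, and the 4 groups did not overlap one another. Osm, a cytokine of the interleukin-6 family, averaged 15.9 ± 3.56 CPM with LPS and 4.65 ± 0.803 CPM without LPS in low M-CSF, and 37.7 ± 3.42 and 4.89 ± 1.09 CPM in normal M-CSF (SD, n = 4 each). Its interaction was lower, at -1.17 ± 0.31 (SE), adjusted p = 0.00561, and its adjusted p with the pairs summed was 0.0960. Summing the pairs left 6 cytokines, all higher.

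Chemokines split. Of 18 tested, 6 had a higher interaction and 2 a lower one, with a median of 0.42, and LPS raised 17 in low M-CSF and 16 in normal M-CSF. Ccl2 read 357, 485, 369 and 569 CPM with LPS and 12.8, 12.2, 8.32 and 11.1 CPM without LPS in low M-CSF. In normal M-CSF, Ccl2 read 3648, 3304, 4131 and 3944 CPM with LPS and 509.6, 279, 315 and 318 CPM without LPS. Ccl2, which draws monocytes into tissue, was lower in low M-CSF with and without LPS, and no library of low M-CSF reached the normal M-CSF group under the same stimulation. Its interaction was nonetheless positive, at 1.92 ± 0.28 (SE), adjusted p = 4.97e-06, since the log2 rise with LPS was 5.32 ± 0.24 in low M-CSF and 3.40 ± 0.21 in normal M-CSF. Cxcl9, an interferon-induced T cell attractant, averaged 265 ± 79.0 CPM with LPS in low M-CSF and 33.6 ± 6.73 CPM with LPS in normal M-CSF (SD, n = 4 each). Without LPS it averaged 0.820 CPM in low and 0.632 CPM in normal M-CSF, near the floor of 3 counts, and its interaction was 2.54 ± 0.54 (SE), adjusted p = 0.00068. Cxcl1 and Cxcl2, attractants of neutrophils, had lower interactions of -1.66 ± 0.55 and -0.83 ± 0.30 (adjusted p = 0.0249 and 0.0447). With LPS, Cxcl2 averaged 11682 ± 2699 CPM in low and 10695 ± 1269 CPM in normal M-CSF, and without LPS 102 ± 20.7 and 52.6 ± 4.76 CPM. Neither passed with the library pairs summed (adjusted p = 0.153 and 0.246), where 3 chemokines passed, all higher. Cxcl1 also lost its call without library 2 of low M-CSF without LPS, or 2 or 4 of normal M-CSF without LPS (adjusted p = 0.0517 to 0.396). Cxcl2 lost it without library 2 or 4 of low M-CSF with LPS, 2 or 4 of low M-CSF without LPS, 2, 3 or 4 of normal M-CSF with LPS, or 2 or 3 of normal M-CSF without LPS (adjusted p = 0.0503 to 0.110).

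Tnfaip3, a brake of NF-kB signalling, was among the 10 largest positive interactions under the level rule. Of the list of NF-kB subunits and feedback brakes, 11 of 24 members were higher and none lower, with a median of 0.81. None was lower by DESeq2 either, and 0 were lower at an unadjusted p under 0.05. LPS raised 23 of the 24 in each medium. Tnfaip3 read 552, 807, 563 and 939.9 CPM with LPS and 7.53, 9.48, 7.74 and 9.23 CPM without LPS in low M-CSF. In normal M-CSF, Tnfaip3 read 211, 332, 245 and 321 CPM with LPS and 73.1, 6.50, 77.4 and 8.16 CPM without LPS. Tnfaip3, the ubiquitin-editing enzyme A20 that turns the pathway off, was above every normal M-CSF library in all 4 stimulated low M-CSF libraries. Without LPS in normal M-CSF, libraries 1 and 3 lay above every unstimulated library of low M-CSF, and libraries 2 and 4 lay among or just below them. Its log2 interaction was 3.66 ± 0.67 (SE), adjusted p = 0.00011, and the adjusted p with the pairs summed was 0.0190. Tnip3, a partner of Tnfaip3, averaged 1004 ± 21.5 CPM with LPS and 41.1 ± 4.58 CPM without LPS in low M-CSF, against 313 ± 31.8 and 74.1 ± 5.11 CPM in normal M-CSF (SD, n = 4 each), an interaction of 2.53 ± 0.20 (SE), adjusted p = 2.07e-11. With library totals alone 9 members were higher and 2 lower, and summing the pairs left 6 higher.

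Of 13 inflammatory effector enzymes, 6 were higher and none lower, with a median of 1.21, and the same numbers passed with the pairs summed. None was lower by DESeq2 either, and 0 were lower at an unadjusted p under 0.05. Acod1 read 34977, 19339.5, 34972 and 17474 CPM with LPS and 32.03, 38.9, 31.8 and 36.1 CPM without LPS in low M-CSF. In normal M-CSF, Acod1 read 6104, 11983, 6432 and 11039 CPM with LPS and 51.6, 69.3, 49.95 and 71.3 CPM without LPS. Acod1 makes itaconate from a Krebs cycle intermediate. Libraries 1 and 3 were above libraries 2 and 4 with LPS in low M-CSF and below them with LPS in normal M-CSF, and the stimulated groups did not overlap. Its log2 interaction was 2.39 ± 0.34 (SE), adjusted p = 2.86e-06. Ptges, which makes prostaglandin E2, averaged 196 ± 49.7 CPM with LPS in low M-CSF and 41.9 ± 3.86 CPM with LPS in normal M-CSF, against 1.04 and 2.02 CPM without LPS, an interaction of 3.10 ± 0.48 (SE), adjusted p = 1.05e-05. Upp1, a uridine phosphorylase, averaged 23.0 ± 4.91 CPM with LPS in low M-CSF and 22.7 ± 2.95 CPM with LPS in normal M-CSF. It had no count in any unstimulated library of low M-CSF, where 3 counts would be 0.441 to 0.609 CPM on library totals without TMM factors. In normal M-CSF without LPS it averaged 0.563 CPM. Its fitted interaction rests on counts at that floor and is not given.

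**Figure D2:**
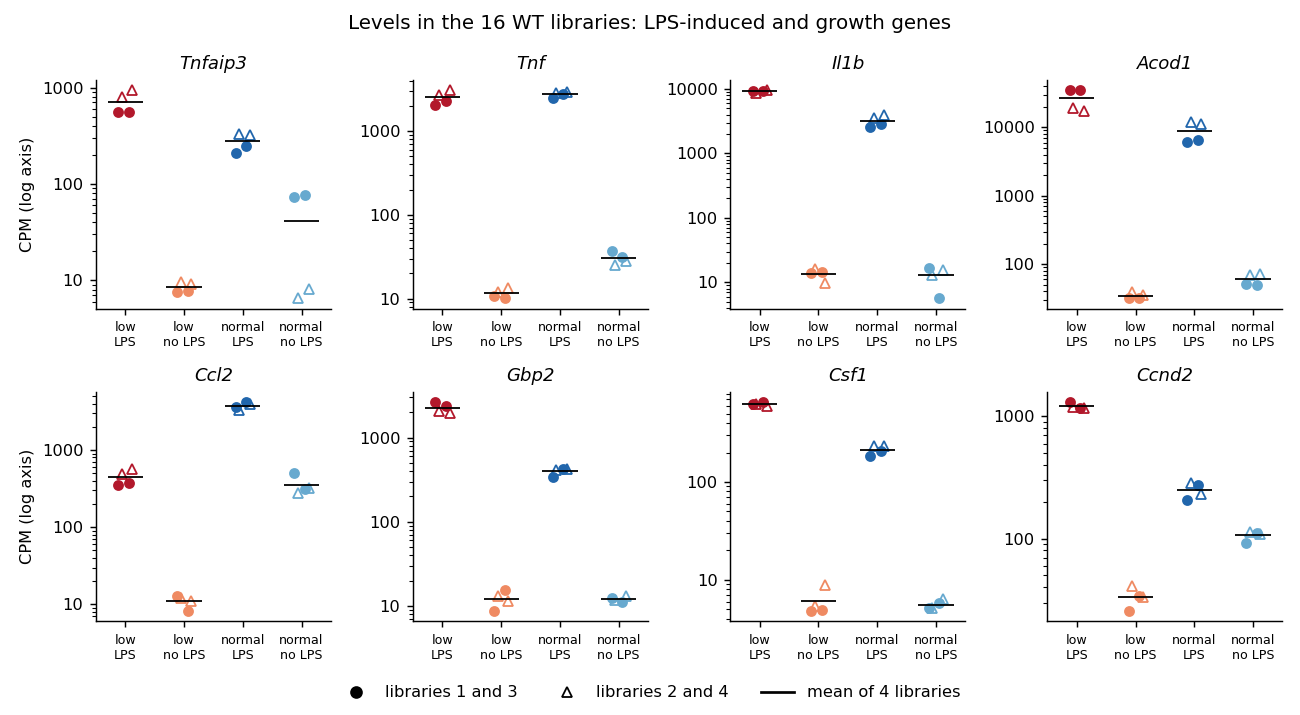
CPM on a log axis in the 16 WT libraries for 8 genes, with the groups WT low M-CSF with LPS, WT low M-CSF without LPS, WT normal M-CSF with LPS and WT normal M-CSF without LPS from left to right. Filled circles are libraries 1 and 3, open triangles libraries 2 and 4, and the bar is the mean of 4 libraries; Tnf differs between media without LPS, Gbp2 and Csf1 with LPS.

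Interferon target genes moved in 1 direction. All 42 members rose with LPS in both media, and 28 had a higher interaction while none had a lower one, with a median of 1.32. None was lower by DESeq2 either, and 0 were lower at an unadjusted p under 0.05. Summing the pairs left 17 and library totals alone left 21, all higher. Gbp2 read 2611, 2079, 2367 and 1935 CPM with LPS and 8.80, 13.1, 15.6 and 11.4 CPM without LPS in low M-CSF. In normal M-CSF, Gbp2 read 339.8, 412, 427 and 420.3 CPM with LPS and 12.6, 11.9, 11.2 and 13.2 CPM without LPS. Gbp2, a GTPase that attacks the vacuoles of microbes, had overlapping unstimulated libraries, and every stimulated library in low M-CSF lay above all stimulated libraries in normal M-CSF. Its log2 interaction was 2.49 ± 0.24 (SE), adjusted p = 1.89e-09. Oasl1, a regulator of interferon production of the oligoadenylate synthetase-like family, averaged 369 ± 51.1 CPM with LPS in low M-CSF and 157 ± 11.6 CPM with LPS in normal M-CSF, against 1.34 and 3.03 CPM without LPS, an interaction of 2.43 ± 0.49 (SE), adjusted p = 0.000358. Close relatives among the Gbp and Oas genes can share reads, so single members of these families are less certain. Ifnb1, which encodes interferon beta itself, was low at this time, at 5.53 ± 2.81 CPM with LPS in low M-CSF and 4.48 ± 2.46 CPM with LPS in normal M-CSF, and its interaction was not called (adjusted p = 0.331).

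The motif TTTCNNTTT, the core of an interferon-stimulated response element, was looked for on both strands of RefSeq promoters (GRCm38.p6, 250 bases before to 50 after a start), which were found for 9096 of the genes tested. It lay in the promoter of 25 of the 33 interferon genes with a promoter, against 906 of all 9096 (9.96%). Among genes with a higher interaction 129 of 973 held it (13.3%), and among genes with a lower one 105 of 1163 (9.03%). Its first 4 letters can be the last 4 of the NF-kB motif given further on, and a match describes letters, not binding. The 250 bases before the start of Gbp2 (chr3:142620413-142620662, plus strand) are shown because Gbp2 had the largest interaction of that list, with the motif in capitals 59 bases before the start.
Gbp2: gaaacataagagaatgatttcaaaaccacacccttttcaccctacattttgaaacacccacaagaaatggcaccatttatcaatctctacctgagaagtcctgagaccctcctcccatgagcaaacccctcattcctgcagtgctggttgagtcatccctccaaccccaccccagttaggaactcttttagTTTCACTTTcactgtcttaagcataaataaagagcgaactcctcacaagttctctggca

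The M-CSF gene itself had the arrangement of Gbp2. Csf1 read 622, 629, 650.4 and 602 CPM with LPS and 4.85, 5.38, 4.96 and 8.90 CPM without LPS in low M-CSF. In normal M-CSF, Csf1 read 184, 231, 209 and 233 CPM with LPS and 5.13, 5.10, 5.81 and 6.33 CPM without LPS. The stimulated libraries of low M-CSF lay above all others, and the unstimulated groups overlapped. Its log2 interaction was 1.44 ± 0.24 (SE), adjusted p = 3.47e-05. Csf1r, its receptor, averaged 842 ± 166 CPM with LPS and 944 ± 169 CPM without LPS in low M-CSF, and 503 ± 41.0 and 459 ± 162 CPM in normal M-CSF (SD, n = 4 each), with an interaction of -0.30 ± 0.27 that was not called (adjusted p = 0.461). Csf3, the growth factor of neutrophils, averaged 0.305 CPM with LPS in low M-CSF and 2.73 CPM with LPS in normal M-CSF. The level in low M-CSF was under the floor of 3 counts, 0.66 to 0.964 CPM on library totals without TMM factors. Csf3 had no count without LPS, so the interaction has no usable fit. The promoter of Csf1 (chr3:107760470-107760719, minus strand) holds the NF-kB motif GGGANTTTC on the strand opposite to the gene, in capitals 153 bases before the start. That motif lay in 112 of 9096 promoters (1.23%), in 15 of 973 of the genes with a higher interaction (1.54%) and in 9 of 1163 of those with a lower one (0.774%). The 250 bases are shown because the gene encodes M-CSF and LPS raised it in both media.
Csf1: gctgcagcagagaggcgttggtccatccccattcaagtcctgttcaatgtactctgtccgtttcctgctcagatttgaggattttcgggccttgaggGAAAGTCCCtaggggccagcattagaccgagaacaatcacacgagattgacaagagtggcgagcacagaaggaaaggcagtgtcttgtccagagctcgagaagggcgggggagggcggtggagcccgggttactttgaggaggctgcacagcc

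Of 31 colony-stimulating factor receptors and known outputs of M-CSF signalling, 6 had a higher and 5 a lower interaction, with a median of 0.03. Over all genes 10.7% were higher and 12.8% lower. Ccnd2 read 1302, 1189, 1180.0 and 1177 CPM with LPS and 25.8, 41.2, 33.7 and 33.6 CPM without LPS in low M-CSF. In normal M-CSF, Ccnd2 read 208, 287, 275 and 232 CPM with LPS and 92.8, 113, 112 and 109 CPM without LPS. Ccnd2, a D-type cyclin, was lowest without LPS in low M-CSF and highest with LPS in low M-CSF, and the 4 groups did not overlap. Its log2 interaction was 3.94 ± 0.24 (SE), adjusted p = 1.84e-14, the second largest positive value under the level rule. Ccnd1, the related D-type cyclin and a classical M-CSF target, averaged 80.6 ± 10.9 CPM with LPS and 273 ± 52.0 CPM without LPS in low M-CSF, against 384 ± 64.3 and 1479 ± 341 CPM in normal M-CSF. It fell with LPS in both media, by 1.76 in low and 1.94 in normal M-CSF on the log2 scale, and its interaction of 0.19 ± 0.26 was not called (adjusted p = 0.659). Inpp5d read 3.31, 4.96, 6.46 and 14.1 CPM with LPS and 108, 103, 121 and 123 CPM without LPS in low M-CSF. In normal M-CSF, Inpp5d read 23.4, 21.4, 29.3 and 20.8 CPM with LPS and 93.1, 61.0, 73.7 and 63.3 CPM without LPS. Inpp5d encodes SHIP1, a phosphatase that opposes growth factor signalling. It fell with LPS in both media, and every stimulated library in low M-CSF lay below every stimulated library in normal M-CSF, an interaction of -2.39 ± 0.34 (SE), adjusted p = 3.38e-06. Plaur, the urokinase receptor, averaged 67.2 ± 13.5 CPM with LPS and 3.67 ± 1.84 CPM without LPS in low M-CSF, and 59.1 ± 5.02 and 15.4 ± 1.72 CPM in normal M-CSF, an interaction of 2.27 ± 0.31 (SE), adjusted p = 1.47e-06. Csf3r, the receptor of neutrophil growth factor, had a lower interaction of -1.34 ± 0.31 (SE), adjusted p = 0.00166. Summing the pairs left 4 higher and 2 lower, and with library totals alone, where the median was -0.25, 6 were higher and 8 lower.

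Of 20 apoptosis and survival genes, 4 were higher and 2 lower, and of 7 costimulatory ligands 1 was higher. Over all genes 10.7% were higher and 12.8% lower, and counts this small are not read as results about these lists. Summing the pairs left 2 of the apoptosis and survival genes, both higher, and on library totals alone 3 were higher and 4 lower. Among the 20 genes of LPS sensing, 3 were higher and 3 lower, not far from the shares over all genes, with a median of 0.01. Cd14, the LPS co-receptor, averaged 1872 ± 403 CPM with LPS and 126 ± 17.3 CPM without LPS in low M-CSF, against 1018 ± 111 and 169 ± 31.0 CPM in normal M-CSF, an interaction of 1.30 ± 0.25 (SE), adjusted p = 0.000199. Tlr4, the signalling receptor, averaged 12.0 ± 2.81 and 39.1 ± 5.87 CPM in low M-CSF with and without LPS, against 20.03 ± 4.09 and 34.5 ± 7.46 CPM in normal M-CSF, an interaction of -0.90 ± 0.28 (SE), adjusted p = 0.0178. The media did not differ in Tlr4 without LPS by the test (log2 0.18 ± 0.18, adjusted p = 0.450). For summed pairs the adjusted p of the Tlr4 interaction was 0.184, and 1 member of the list passed, upward. The Tlr4 call was also lost without library 3 of normal M-CSF with LPS (adjusted p = 0.0535). With library totals alone, where the median was -0.32, 1 was higher and 5 were lower.

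Glycolysis genes showed a different arrangement, with lower levels in low M-CSF before LPS and a rise with LPS there. Without LPS, 15 of the 18 members were lower in low than in normal M-CSF and none higher (22.4% of all genes were higher and 21.9% lower). LPS raised 15 in low M-CSF, and in normal M-CSF it raised 6 and lowered 1. Over all genes it raised 27% in low M-CSF, and raised 18.3% and lowered 17.9% in normal M-CSF. The interaction was higher for 10 and lower for none, with a median of 0.99. None was lower by DESeq2 either, and 0 were lower at an unadjusted p under 0.05. Ldha read 264, 375, 288 and 402 CPM with LPS and 140.2, 125, 144 and 140.3 CPM without LPS in low M-CSF. In normal M-CSF, Ldha read 922, 740.4, 843 and 708 CPM with LPS and 995, 587, 657 and 544 CPM without LPS. Ldha makes lactate. Its stimulated libraries in low M-CSF lay above the unstimulated ones and below every normal M-CSF library, and the normal M-CSF groups overlapped, giving an interaction of 1.06 ± 0.24 (SE), adjusted p = 0.00126. Its adjusted p for summed pairs was 0.0926. Pfkfb3 read 193, 272, 217 and 245 CPM with LPS and 7.15, 5.76, 7.01 and 12.9 CPM without LPS in low M-CSF. In normal M-CSF, Pfkfb3 read 24.3, 25.6, 26.2 and 18.6 CPM with LPS and 8.0, 7.17, 7.27 and 4.36 CPM without LPS. Pfkfb3, which makes the activator of phosphofructokinase, had its stimulated low M-CSF libraries above all others and an interaction of 3.03 ± 0.28 (SE), adjusted p = 4.74e-10. Slc2a1, the glucose transporter Glut1, averaged 244 ± 27.9 CPM with LPS and 20.3 ± 2.39 CPM without LPS in low M-CSF, against 219 ± 9.63 and 76.9 ± 11.6 CPM in normal M-CSF, an interaction of 2.07 ± 0.22 (SE), adjusted p = 1.52e-08. Summed pairs left 6 members higher. Cycs, cytochrome c, was the single called member of the 31 respiratory chain genes, at 1.999 ± 0.19 (SE), adjusted p = 1.36e-09, and the median of that list was -0.04. On library totals alone 1 was higher and 4 were lower.

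Of 15 hypoxia targets, 4 were higher and 1 lower, with a median of 0.49, against 10.7% higher and 12.8% lower over all genes. P4ha1, a collagen prolyl hydroxylase subunit, averaged 335 ± 101 CPM with LPS and 77.7 ± 2.41 CPM without LPS in low M-CSF, against 246 ± 58.4 and 183 ± 18.1 CPM in normal M-CSF, an interaction of 1.68 ± 0.26 (SE), adjusted p = 1.28e-05. Mxi1, an antagonist of Myc, went the other way, at -1.10 ± 0.27 (SE), adjusted p = 0.00299. For summed pairs 2 hypoxia targets passed, both higher, and Mxi1 did not (adjusted p = 0.0629). On library totals alone 2 were higher and 2 lower.

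Cholesterol synthesis genes had the same arrangement. Without LPS, 18 of 24 were lower in low than in normal M-CSF and none higher. LPS raised 14 and lowered 5 in low M-CSF, and raised 2 and lowered 7 in normal M-CSF. Over all genes it raised 27% and lowered 33.6% in low M-CSF, and raised 18.3% and lowered 17.9% in normal M-CSF. The interaction was higher for 12 and lower for 2, with a median of 0.76. Hmgcs1 read 223, 175, 216 and 185 CPM with LPS and 72.9, 69.5, 87.3 and 80.2 CPM without LPS in low M-CSF. In normal M-CSF, Hmgcs1 read 80.97, 96.2, 82.8 and 98.0 CPM with LPS and 83.8, 88.8, 104 and 90.3 CPM without LPS. Hmgcs1 makes the HMG-CoA from which sterols are built. The stimulated low M-CSF libraries lay above the other 12, whose groups overlapped, and the interaction was 1.41 ± 0.30 (SE), adjusted p = 0.000709, with an adjusted p of 0.0623 for summed pairs. Idi1 and Sqle, enzymes of isoprenoid and squalene conversion, had interactions of 1.86 ± 0.30 (SE), adjusted p = 1.5e-05 for Idi1 and 1.61 ± 0.25 (SE), adjusted p = 9.9e-06 for Sqle. Dhcr7 and Mvk, a sterol reductase and mevalonate kinase, had lower interactions of -1.44 ± 0.49 and -1.16 ± 0.44 (adjusted p = 0.0312 and 0.0499), and averaged 1.62 and 2.90 CPM with LPS in low M-CSF. With library totals alone 7 members were higher and 3 lower, and with the pairs summed 3 were higher, so the count depends on these choices. The Dhcr7 call was lost without library 4 of low M-CSF with LPS, 3 or 4 of low M-CSF without LPS, or 1 of normal M-CSF with LPS (adjusted p = 0.0507 to 0.0850). The Mvk call was lost without library 1 or 3 of low M-CSF with LPS, 1, 3 or 4 of low M-CSF without LPS, 2, 3 or 4 of normal M-CSF with LPS, or 1 or 3 of normal M-CSF without LPS (adjusted p = 0.0508 to 0.131). The promoter of Hmgcs1 (chr13:119690101-119690350, plus strand) is shown because it was the cholesterol synthesis promoter that held the SREBP motif TCACCCCAC, 1 of the 17 found, in capitals 137 bases before the start. The motif lay in 58 of all 9096 promoters (0.638%), in 8 of 973 of the genes with a higher interaction (0.822%) and in 12 of 1163 of those with a lower one (1.03%).
Hmgcs1: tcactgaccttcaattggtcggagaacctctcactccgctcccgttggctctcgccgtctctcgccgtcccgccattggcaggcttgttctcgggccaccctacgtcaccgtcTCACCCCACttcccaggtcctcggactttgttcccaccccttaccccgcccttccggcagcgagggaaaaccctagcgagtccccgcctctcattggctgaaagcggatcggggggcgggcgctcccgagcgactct

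Fatty acid synthesis had 1 higher and 1 lower member of 15, against 10.7% higher and 12.8% lower over all genes. Fads1, a fatty acid desaturase, averaged 11.2 ± 3.68 CPM with LPS and 66.4 ± 7.36 CPM without LPS in low M-CSF, against 43.4 ± 4.57 and 67.3 ± 3.18 CPM in normal M-CSF, an interaction of -1.94 ± 0.29 (SE), adjusted p = 8.13e-06. Acsl1, which activates fatty acids, was at 0.89 ± 0.22 (SE), adjusted p = 0.00302, and lost its call with the pairs summed (adjusted p = 0.157). Of 12 targets of LXR, the sterol-sensing nuclear receptor, 4 were lower and 1 higher, with a median of -0.42. Abca1 read 220.3, 255, 231 and 210.1 CPM with LPS and 276, 377, 274 and 403 CPM without LPS in low M-CSF. In normal M-CSF, Abca1 read 79.5, 114, 87.6 and 104 CPM with LPS and 34.2, 66.5, 53.2 and 66.8 CPM without LPS. Abca1 exports cholesterol. It fell with LPS in low M-CSF and rose with LPS in normal M-CSF, and all low M-CSF libraries lay above all normal M-CSF libraries, an interaction of -1.34 ± 0.30 (SE), adjusted p = 0.00100. Abcg1, its partner exporter, averaged 18.6 ± 4.19 and 56.0 ± 10.4 CPM in low M-CSF with and without LPS, against 56.5 ± 5.55 and 41.7 ± 16.7 CPM in normal M-CSF, an interaction of -2.03 ± 0.32 (SE), adjusted p = 1.18e-05. Apoe, a lipid carrier and LXR target, averaged 4578 ± 329 and 3747 ± 615 CPM in low M-CSF with and without LPS, against 455 ± 44.9 and 447 ± 53.3 CPM in normal M-CSF. Its interaction was not called (0.26 ± 0.20, adjusted p = 0.352). For summed pairs 3 LXR targets were lower, and Abca1 had an adjusted p of 0.0734.

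**Figure D3:**
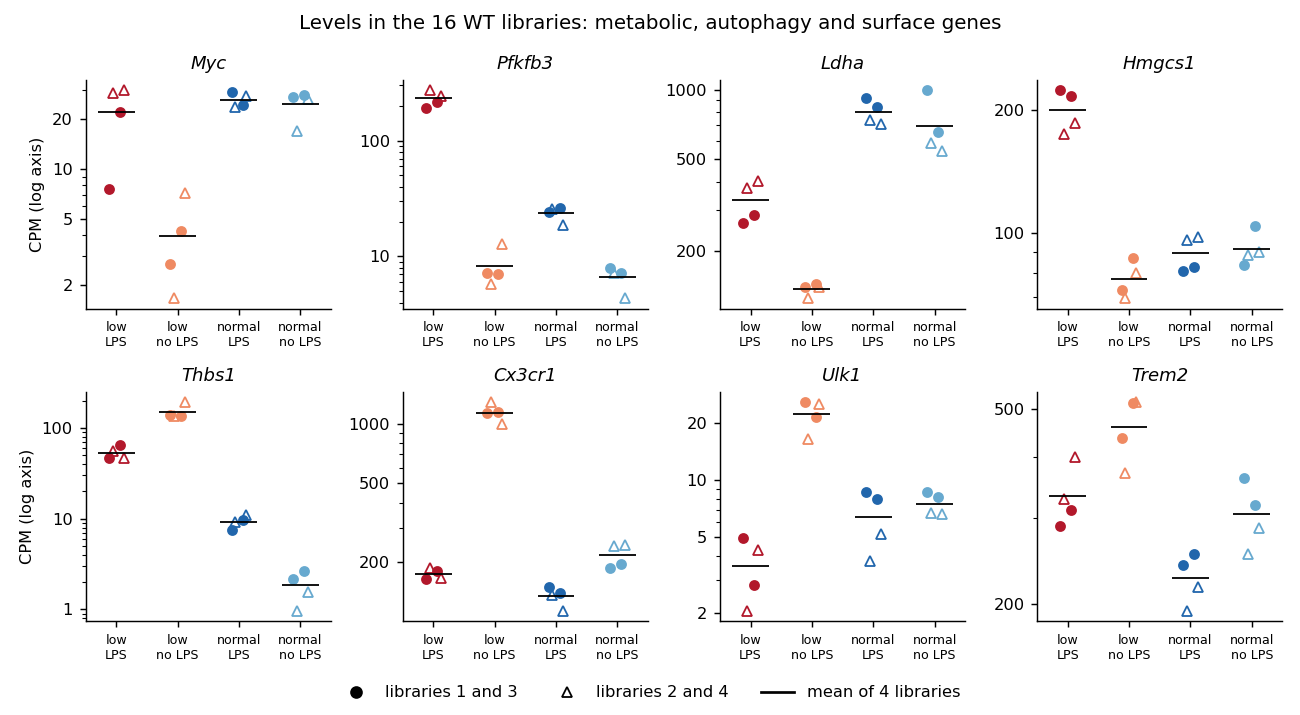
CPM on a log axis in the 16 WT libraries for 8 genes, in the group order WT low M-CSF with LPS, WT low M-CSF without LPS, WT normal M-CSF with LPS and WT normal M-CSF without LPS; symbols are filled circles for libraries 1 and 3, open triangles for libraries 2 and 4 and a bar for the mean. Myc, Ldha and Ulk1 differ most between media without LPS, Pfkfb3 and Hmgcs1 with LPS.

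Myc and the genes of ribosome assembly that it is known to drive had the arrangement of the glycolysis list. Of 24 members, 12 were higher and 2 lower, with a median of 0.75. Without LPS, 16 were lower in low than in normal M-CSF and 1 higher. Myc read 7.62, 28.9, 22.2 and 29.9 CPM with LPS and 2.68, 1.66, 4.23 and 7.22 CPM without LPS in low M-CSF. In normal M-CSF, Myc read 29.4, 23.6, 24.3 and 27.5 CPM with LPS and 27.3, 17.0, 27.9 and 26.6 CPM without LPS. Of the 4 stimulated low M-CSF libraries, library 1 lay below every normal M-CSF library and the other 3 lay within or just above their range, and all unstimulated low M-CSF libraries lay below that range. The interaction was 2.42 ± 0.45 (SE), adjusted p = 0.000135. Ddx21, a helicase of ribosome assembly, averaged 538 ± 308 CPM with LPS and 105 ± 19.3 CPM without LPS in low M-CSF, against 271 ± 76.1 and 256 ± 73.3 CPM in normal M-CSF, an interaction of 2.27 ± 0.44 (SE), adjusted p = 0.000235. The count was 7 higher and 3 lower on library totals alone, and 5 higher with the pairs summed.

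Of 25 targets of ATF4, the transcription factor of amino acid stress, 8 were higher and 3 lower, with a median of 0.70. Leaving out library 4 of low M-CSF with LPS left 5 higher, and summing the pairs left 4 higher and 1 lower. Nupr1 read 274, 203, 308 and 197 CPM with LPS and 9.19, 10.9, 9.93 and 7.22 CPM without LPS in low M-CSF. In normal M-CSF, Nupr1 read 53.0, 55.7, 43.1 and 55.9 CPM with LPS and 29.8, 15.3, 19.8 and 18.6 CPM without LPS. Nupr1, a small stress-induced chromatin protein, had stimulated low M-CSF libraries above all others and unstimulated low M-CSF libraries below all others, an interaction of 3.40 ± 0.26 (SE), adjusted p = 1.66e-11. Mthfd2, a mitochondrial enzyme of one-carbon metabolism, averaged 194 ± 3.26 CPM with LPS and 35.8 ± 9.30 CPM without LPS in low M-CSF, against 347 ± 25.3 and 242 ± 68.3 CPM in normal M-CSF, an interaction of 1.92 ± 0.27 (SE), adjusted p = 2.54e-06. Sesn2, an inhibitor of mTORC1, went the other way, at -2.44 ± 0.54 (SE), adjusted p = 0.00100. Phgdh, the first enzyme of serine synthesis, averaged 2.71 and 1.47 CPM in low M-CSF with and without LPS and 21.5 and 19.5 CPM in normal M-CSF, with no call (0.79 ± 0.49, adjusted p = 0.256). The promoter of Nupr1 (chr7:126625471-126625720, minus strand) is shown because Nupr1 was the ATF4 target among the 10 largest interactions under the level rule. It holds the composite CEBP-ATF motif TGATGNAAT on the opposite strand, in capitals 111 bases before the start, a motif found in 3 of the 22 ATF4 target promoters and in 48 of all 9096 (0.528%). It lay in 9 of 973 of the genes with a higher interaction (0.925%) and in 5 of 1163 of those with a lower one (0.430%).
Nupr1: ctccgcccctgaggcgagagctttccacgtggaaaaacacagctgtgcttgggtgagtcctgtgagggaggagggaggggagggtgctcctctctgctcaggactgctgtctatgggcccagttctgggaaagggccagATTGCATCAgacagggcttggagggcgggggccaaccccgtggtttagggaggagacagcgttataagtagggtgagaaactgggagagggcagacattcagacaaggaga

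Among cell division genes, lower interactions outnumbered higher ones. Of 26 S-phase genes, 11 were lower and 3 higher, with a median of -0.76, and of 22 mitosis genes, 10 were lower and 1 higher, with a median of -0.97, against 12.8% lower and 10.7% higher over all genes. Without LPS, 25 S-phase and 19 mitosis genes were already lower in low than in normal M-CSF and none higher. LPS lowered 20 mitosis genes in low M-CSF and 5 in normal M-CSF. It lowered 21 S-phase genes in low M-CSF and 19 in normal M-CSF. Over all genes LPS lowered 33.6% in low and 17.9% in normal M-CSF. Cdc20 read 7.62, 11.6, 5.25 and 12.4 CPM with LPS and 43.3, 47.0, 41.7 and 31.2 CPM without LPS in low M-CSF. In normal M-CSF, Cdc20 read 77.9, 55.9, 67.6 and 67.5 CPM with LPS and 151, 80.9, 84.7 and 88.2 CPM without LPS. Cdc20 activates the complex that ends mitosis. Its stimulated low M-CSF libraries lay below all others and all low M-CSF libraries below all normal M-CSF libraries, an interaction of -1.57 ± 0.38 (SE), adjusted p = 0.00229. E2f1, a driver of S-phase entry, averaged 2.56 ± 2.78 and 14.9 ± 1.34 CPM in low M-CSF with and without LPS, against 15.4 ± 5.65 and 26.7 ± 3.03 CPM in normal M-CSF, an interaction of -1.77 ± 0.47 (SE), adjusted p = 0.00571. Mki67 read 676, 157, 601 and 162 CPM with LPS and 309, 562, 251 and 269 CPM without LPS in low M-CSF. In normal M-CSF, Mki67 read 201, 378, 213 and 358 CPM with LPS and 616, 945, 855 and 953 CPM without LPS. Mki67, a protein of dividing cells, was the 1 mitosis member with a higher interaction, at 1.75 ± 0.60 (SE), adjusted p = 0.0316. In low M-CSF with LPS its libraries 1 and 3 were high and libraries 2 and 4 low, and the call was lost with summed pairs (adjusted p = 0.214). It was also lost without library 1 or 3 of low M-CSF with LPS, 1, 3 or 4 of low M-CSF without LPS, 1 or 3 of normal M-CSF with LPS, or 2 or 4 of normal M-CSF without LPS (adjusted p = 0.0529 to 0.108). Ccne1, cyclin E1, was also higher, at 2.11 ± 0.46 (SE), adjusted p = 0.000829. The mitosis count fell to 5 without library 2 of low M-CSF without LPS, and to 6 without library 2 of low M-CSF with LPS or library 2 of normal M-CSF with LPS. Summing the pairs left 3 S-phase and 2 mitosis genes lower and 1 S-phase gene higher, and with library totals alone 13 and 17 were lower. RLE size factors and the replicate block each left 8 S-phase and 5 mitosis genes lower. The numbers were 10 and 9 by DESeq2 and 11 and 13 with upper quartile factors.

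On the lower side, most autophagy genes stood higher in low M-CSF before LPS, and more members fell than rose with LPS there. Without LPS, 16 of 24 members were higher in low than in normal M-CSF and 1 lower. LPS lowered 14 and raised 6 in low M-CSF, and lowered 4 and raised 3 in normal M-CSF. Over all genes it lowered 33.6% and raised 27% in low M-CSF, and lowered 17.9% and raised 18.3% in normal M-CSF. The interaction was lower for 10 and higher for 2, with a median of -0.61. Ulk1 read 4.97, 2.07, 2.83 and 4.28 CPM with LPS and 25.5, 16.4, 21.5 and 25.0 CPM without LPS in low M-CSF. In normal M-CSF, Ulk1 read 8.66, 3.77, 7.98 and 5.20 CPM with LPS and 8.62, 6.75, 8.11 and 6.61 CPM without LPS. Ulk1, the kinase that starts autophagosome formation, stood out without LPS in low M-CSF, where all 4 libraries lay above the other 12, and its interaction was -2.40 ± 0.47 (SE), adjusted p = 0.000272. Wipi2 read 12.9, 11.6, 8.48 and 9.84 CPM with LPS and 35.1, 66.8, 38.8 and 57.7 CPM without LPS in low M-CSF. In normal M-CSF, Wipi2 read 22.1, 21.2, 13.5 and 15.6 CPM with LPS and 11.7, 19.8, 14.6 and 18.6 CPM without LPS. Wipi2, a lipid-binding protein of the growing autophagosome, had the same arrangement and an interaction of -2.38 ± 0.33 (SE), adjusted p = 1.71e-06. Optn, a cargo receptor, went the other way, averaging 63.3 ± 28.9 CPM with LPS and 11.4 ± 2.44 CPM without LPS in low M-CSF, against 16.6 ± 3.93 and 16.1 ± 1.496 CPM in normal M-CSF, an interaction of 2.44 ± 0.41 (SE), adjusted p = 3.51e-05. Summing the pairs left 3 lower and 1 higher, and with library totals alone 15 were lower and 1 higher.

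Of 31 lysosomal genes, 7 were lower and none higher, with a median of -0.34. None was higher by DESeq2 either, and 0 were higher at an unadjusted p under 0.05. Tfeb, the transcription factor of lysosome genes, averaged 2.11 ± 0.905 and 25.8 ± 5.10 CPM in low M-CSF with and without LPS, against 3.81 ± 1.90 and 9.53 ± 0.979 CPM in normal M-CSF, an interaction of -2.33 ± 0.58 (SE), adjusted p = 0.00305. Gla, a lysosomal galactosidase, was at -1.38 ± 0.23 (SE), adjusted p = 2.58e-05. For summed pairs 2 passed, both lower, and on library totals alone 14, all lower.

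Thbs1 had a large lower interaction. Thbs1 read 46.7, 55.8, 64.6 and 47.1 CPM with LPS and 138, 134, 135 and 191 CPM without LPS in low M-CSF. In normal M-CSF, Thbs1 read 7.45, 9.31, 9.58 and 10.9 CPM with LPS and 2.17, 0.972, 2.68 and 1.55 CPM without LPS. Thbs1 encodes thrombospondin 1, a matrix protein that binds Cd36 and Cd47. The 4 groups did not overlap, and LPS lowered it in low M-CSF and raised it in normal M-CSF, an interaction of -3.79 ± 0.33 (SE), adjusted p = 1.03e-10. Cx3cr1 read 166, 188, 181 and 167 CPM with LPS and 1126, 1279, 1140.4 and 997 CPM without LPS in low M-CSF. In normal M-CSF, Cx3cr1 read 150.1, 138, 139.9 and 115 CPM with LPS and 188, 241, 196 and 244 CPM without LPS. Cx3cr1, the fractalkine receptor of resident macrophages and monocytes, was highest in every unstimulated low M-CSF library, and its interaction was -2.01 ± 0.23 (SE), adjusted p = 4.01e-08. Of 29 macrophage identity genes, which include it, 5 were lower and 3 higher, with a median of -0.04. Over all genes 12.8% were lower and 10.7% higher. The count of lower members was 3 without library 1 or 3 of low M-CSF with LPS or library 4 of low M-CSF without LPS. It was also 3 without library 1 or 3 of normal M-CSF with LPS. Msr1, a scavenger receptor, averaged 1348 ± 52.5 CPM with LPS and 141 ± 30.0 CPM without LPS in low M-CSF, against 715 ± 35.2 and 334 ± 45.1 CPM in normal M-CSF, an interaction of 2.16 ± 0.23 (SE), adjusted p = 9.42e-09. Spi1, the lineage factor PU.1, was also higher, at 1.26 ± 0.23 (SE), adjusted p = 8e-05. Of the 7 genes of MHC class II tested none passed in either direction by edgeR or DESeq2, with 3 lower and 0 higher at an unadjusted p under 0.05 and a median of -0.57, and with library totals alone 3 were lower.

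Markers of other myeloid cells were counted beside these lists. Of 6 monocyte markers, 3 had a higher and 1 a lower interaction, with a median of 1.23, against 10.7% and 12.8% of all genes. Their summed level was 176 to 231 CPM with LPS and 439 to 515 CPM without LPS in low M-CSF, against 120 to 140 and 108 to 154 CPM in normal M-CSF. Ccr2, the receptor of Ccl2, was the lower one and made up most of that sum without LPS, at 79.4 ± 17.0 and 477 ± 36.5 CPM in low M-CSF with and without LPS, against 62.2 ± 6.83 and 94.9 ± 28.0 CPM in normal M-CSF, an interaction of -1.98 ± 0.25 (SE), adjusted p = 3.29e-07. Ly6c2, a surface protein of inflammatory monocytes with a close relative that can share reads, averaged 12.6 ± 0.809 and 4.53 ± 0.940 CPM in low M-CSF with and without LPS, against 22.3 ± 4.76 and 22.9 ± 8.45 CPM in normal M-CSF, an interaction of 1.52 ± 0.37 (SE), adjusted p = 0.00239. Of 12 neutrophil markers 1 was higher, Lcn2 at 1.09 ± 0.40 (SE), adjusted p = 0.0413, and 1 lower, Mmp8 at -1.18 ± 0.24 (SE), adjusted p = 0.000435. The Lcn2 call was lost without library 2 or 4 of low M-CSF with LPS, 2, 3 or 4 of low M-CSF without LPS, 1, 2 or 4 of normal M-CSF with LPS, or 2 of normal M-CSF without LPS (adjusted p = 0.0587 to 0.221) and with the pairs summed (adjusted p = 0.123). The 13 neutrophil markers with an identifier, tested or not, summed to 322 to 366 and 129 to 161 CPM in low M-CSF with and without LPS. In normal M-CSF they summed to 180 to 207 and 76.0 to 96.5 CPM. Of 7 osteoclast markers 4 were tested, and 1 was higher. All 7 summed to 50.9 to 88.9 and 79.4 to 131 CPM in low M-CSF with and without LPS. In normal M-CSF they summed to 26.9 to 32.2 and 50.2 to 78.1 CPM. Of 3 dendritic cell markers 1 was lower, and the single lymphocyte and stromal markers tested did not pass. The part of these cells in the results above was not tested.

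**Figure D4:**
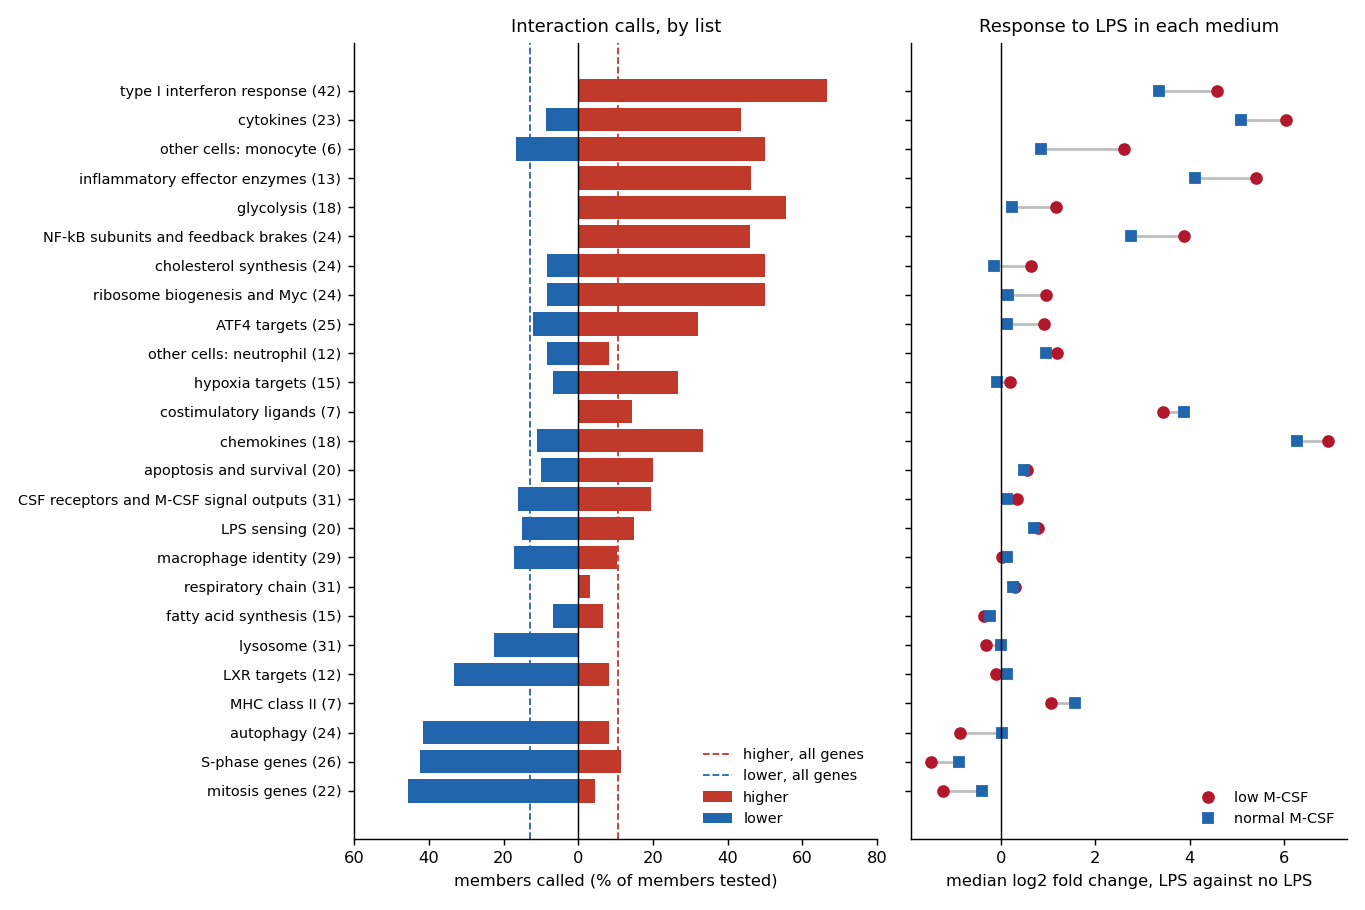
Left, the share of tested members with a higher (red) or lower (blue) interaction for lists with at least 6 tested members, given in brackets, with dashed lines at the shares over all genes (10.7% higher, 12.8% lower). Right, the median log2 change with LPS in low M-CSF (circles) and in normal M-CSF (squares) of the same lists, which are ordered by median interaction.

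The rest of the 10 largest positive interactions under the level rule were spread over several functions. Mmp13, a collagenase, averaged 1847 ± 670.4 CPM with LPS and 10.2 ± 3.25 CPM without LPS in low M-CSF, against 384 ± 72.1 and 20.1 ± 2.78 CPM in normal M-CSF, an interaction of 3.25 ± 0.33 (SE), adjusted p = 5.88e-09. Mt2, a metallothionein that binds zinc, averaged 478 ± 147 and 16.8 ± 2.36 CPM in low M-CSF with and without LPS, against 87.1 ± 10.6 and 30.7 ± 4.30 CPM in normal M-CSF, at 3.32 ± 0.28 (SE), adjusted p = 6.74e-11. Ak4, a mitochondrial adenylate kinase, was at 3.85 ± 0.46 (SE), adjusted p = 1.22e-07, and AA467197 at 3.14 ± 0.26 (SE), adjusted p = 6.74e-11. Trip13, a mitotic checkpoint ATPase, was at 3.31 ± 0.53 (SE), adjusted p = 1.65e-05. Trip13 read 70.6, 16.5, 52.9 and 16.7 CPM with LPS and 5.61, 5.63, 4.96 and 4.36 CPM without LPS in low M-CSF. In normal M-CSF, Trip13 read 28.1, 44.5, 24.3 and 33.6 CPM with LPS and 19.6, 62.6, 21.7 and 66.1 CPM without LPS. Its libraries 1 and 3 lay above libraries 2 and 4 with LPS in low M-CSF and below them in normal M-CSF. Among the 10 largest negative ones, Pcmtd2 averaged 6.11 ± 3.44 and 122 ± 52.4 CPM in low M-CSF with and without LPS, against 13.7 ± 2.11 and 17.9 ± 3.22 CPM in normal M-CSF, at -3.89 ± 0.46 (SE), adjusted p = 9.67e-08. Slc26a11, an anion transporter, averaged 2.48 ± 1.46 and 221 ± 62.1 CPM in low M-CSF, against 2.29 ± 0.524 and 20.1 ± 3.28 CPM in normal M-CSF, at -3.36 ± 0.46 (SE), adjusted p = 1.71e-06. Jmy, an actin nucleator, was at -3.46 ± 0.49 and Pdcd4, an inhibitor of translation, at -3.35 ± 0.76 (adjusted p = 2.54e-06 and 0.00125). Bmp2, a growth factor of the TGF-beta family, stood at 20.5 CPM without LPS in low M-CSF and at 2.40, 2.23 and 1.97 CPM in low M-CSF with LPS and in normal M-CSF with and without LPS, at -3.33 ± 0.55 (SE), adjusted p = 2.79e-05. Ttc38, N4bp2l1, Prr11 and Nek4 completed the 10, between -3.48 and -3.33. In that order they averaged 1.53, 4.98, 1.45 and 2.10 CPM with LPS and 45.0, 106, 29.4 and 29.3 CPM without LPS in low M-CSF. In normal M-CSF they averaged 6.65, 7.90, 17.5 and 6.21 CPM with LPS and 17.2, 15.8, 33.5 and 8.63 CPM without LPS. Pdcd4 averaged 1.84 CPM with LPS in low M-CSF, where 3 counts are 0.66 to 0.964 CPM. Ttc38, Prr11, Nek4 and Pdcd4 lay near that floor, so the size of their interactions is uncertain.

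Several well-known LPS targets had no called interaction although LPS raised them strongly in both media. Il6 averaged 627 ± 79.7 CPM with LPS in low M-CSF and 201 ± 49.0 CPM with LPS in normal M-CSF, against 1.29 and 0.921 CPM without LPS, with an interaction of 1.22 ± 0.54 (SE), adjusted p = 0.0995. Il12b averaged 1961 ± 712 and 1022 ± 394 CPM with LPS in low and normal M-CSF, with an interaction of 1.03 ± 0.49 (SE), adjusted p = 0.122, and Il10 averaged 31.7 ± 3.67 and 15.6 ± 1.39 CPM, at 1.41 ± 0.62 (SE), adjusted p = 0.0962. Ptgs2, the inducible cyclooxygenase, was at 0.88 ± 0.41 (SE), adjusted p = 0.113 and Ccl5 at 0.62 ± 0.28 (SE), adjusted p = 0.113. With LPS alone, Il6, Il12b, Il10, Ptgs2 and Ccl5 were each higher in low than in normal M-CSF (log2 1.65 ± 0.27, 0.94 ± 0.27, 1.03 ± 0.30, 1.501 ± 0.26 and 1.29 ± 0.19; adjusted p = 5.92e-06, 0.00496, 0.00553, 1.4e-05 and 9.23e-07). Their unstimulated means were 0.543 to 10.7 CPM. A call was gained for Il6 without library 2 of low M-CSF without LPS (adjusted p = 0.0448), for Ccl5 without library 4 of low M-CSF without LPS (adjusted p = 0.0465) and for Ptgs2 without library 1 of low M-CSF without LPS, or 3 of normal M-CSF without LPS (adjusted p = 0.0392 to 0.0494). Nos2, the inducible nitric oxide synthase, averaged 93.2 ± 30.2 and 84.4 ± 20.9 CPM with LPS in low and normal M-CSF. Without LPS it averaged 0.222 and 0.188 CPM. There, on library totals without TMM factors, 3 counts are 0.441 to 0.609 CPM in low and 0.231 to 0.54 CPM in normal M-CSF. Cxcl10 averaged 10966 ± 1527 and 8895 ± 505 CPM with LPS in low and normal M-CSF, and its interaction of -0.48 ± 0.46 was not called (adjusted p = 0.488). Mcm5, a subunit of the replication helicase and not a gene that LPS raised here, also had no called interaction (-0.55 ± 0.34, adjusted p = 0.254). It read 2.02 to 8.98 CPM with LPS and 9.90 to 12.6 CPM without LPS in low M-CSF. In normal M-CSF it read 45.5 to 56.4 CPM with LPS and 65.4 to 75.7 CPM without LPS.

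Trem2, the gene targeted in the T2KO cells, had no called interaction in WT cells. Trem2 read 289, 328, 312 and 399 CPM with LPS and 438, 371, 516 and 517 CPM without LPS in low M-CSF. In normal M-CSF, Trem2 read 240.3, 194, 253 and 216 CPM with LPS and 363, 254, 319 and 286 CPM without LPS. Every low M-CSF library lay above every normal M-CSF library under the same stimulation, by 0.55 ± 0.19 with LPS and 0.59 ± 0.19 without LPS on the log2 scale. The interaction was -0.04 ± 0.26 (adjusted p = 0.939). The libraries labelled T2KO averaged 6.01 ± 2.31 CPM with LPS and 115 ± 13.9 CPM without LPS in low M-CSF, and 5.88 ± 2.28 and 36.3 ± 4.96 CPM in normal M-CSF (SD, n = 4 each), below WT in every group but not at 0. Whether these 3′ reads lie outside the altered part of the gene is not given in the sources used here. Whether the interaction itself depended on Trem2 was tested as WT minus T2KO interaction, and 329 of 11244 genes passed (2.93%), 147 higher (1.31%) and 182 lower (1.62%) in WT, around a median of 0.14 over all genes. In T2KO cells the interaction itself passed for 3971 genes (35.3%), 1494 higher (13.3%) and 2477 lower (22%). With the pairs summed the genotype difference passed for 1 gene, and the range over fits that leave out 1 library was 194 to 407. Among the genes above, the Ccnd2 interaction was 3.94 ± 0.24 in WT and 5.74 ± 0.25 in T2KO (adjusted p of the difference = 0.00292), and that of Pfkfb3 was 3.03 ± 0.28 in WT and 1.43 ± 0.27 in T2KO (adjusted p of the difference = 0.0186). The Il1b interaction was 1.44 ± 0.38 in WT and -0.65 ± 0.38 in T2KO, a difference of 2.09 ± 0.54 (SE), adjusted p = 0.0278.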

How the data were processed

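The deposited values are raw, unnormalised counts listed by Entrez gene identifier; per the submitters' processing notes STAR, HTSeq, DESeq2 and build mm10 were used, without versions, and the strand setting of the counting is not given in the sources used here. Symbols were matched for 23969 of 24885 identifiers. One model with 8 group means covered all 32 libraries in edgeR 4.0.16 (R 4.3.3) after filterByExpr and TMM scaling; each contrast was given a quasi-likelihood F test (either direction) and Benjamini-Hochberg adjustment over 11244 genes. SE is the log2 change divided by the root of F. A call is an adjusted p under 0.05. The method was tested on simulated data. A floor is 3 counts at 95% confidence. Floors in CPM use library totals without TMM factors, so beside the TMM-scaled levels they are approximate.

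Named genes are the 10 largest interactions in each direction among called genes with at least 1 CPM on average in every WT group and at least 20 CPM in the highest, up to 2 members of each list in each direction with at least 10 CPM in their highest group, and 25 genes kept whatever their values. The members and the 31 lists were chosen with earlier results of these data known, so list counts are descriptions, given with no set test. Alternatives were other scalings, other low-count filters, thinning, DESeq2 1.42.0, WT libraries alone, a replicate block, summed library pairs and leaving out each WT library; library totals alone, and the list counts under summed pairs and with a library left out, were added after the data were seen.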

Additional observations from a re-analysis of the deposited data

Results flagged for a closer look

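In 7 of the 96 sets of 4 libraries looked at, for 23 genes and the total counts, 1 library stood apart from the other 3 by Dixon's ratio, a gap that chance gives in about 1 group in 20. The highest library stood apart for Ccnd2 with LPS in low M-CSF (1302 CPM), for Csf1 (8.90 CPM) and Thbs1 (191 CPM) without LPS in low M-CSF, and for Ccl2 (509.6 CPM) and Cdc20 (151 CPM) without LPS in normal M-CSF. The lowest stood apart for Gbp2 with LPS in normal M-CSF (339.8 CPM) and for Myc without LPS in normal M-CSF (17.0 CPM).

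The interaction differed between WT and T2KO cells, by edgeR's test of the difference itself, for 14 of the 107 genes reported under the rule for named genes. Most of these genes were chosen for their WT interaction, which is a term of that difference, so the share cannot be read against the 2.93% of all genes. It was higher in WT for Pfkfb3, a glycolytic regulator (1.59 ± 0.38), for the inflammatory genes Il1b (2.09 ± 0.54), Ccl5 (1.40 ± 0.40) and Lcn2 (2.14 ± 0.53), and for Trem2 itself (1.61 ± 0.42), all on the log2 scale with SE. The Trem2 value rests on the counts left in the T2KO libraries. It was lower in WT for the cyclins Ccnd1 (-2.37 ± 0.37), Ccnd2 (-1.79 ± 0.33) and Ccne1 (-3.18 ± 0.66), for the lipid genes Abca1 (-1.55 ± 0.42), Abcg1 (-2.08 ± 0.43) and Lpl (-1.17 ± 0.32), and for Prr11 (-4.30 ± 0.96), Mxi1 (-1.57 ± 0.39) and Tnip3 (-1.13 ± 0.28). Adjusted p-values were 0.000522 to 0.0455, and none of these genes passed with the library pairs summed.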

How the results depend on the processing

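With the library pairs summed, which leaves 2 values a group, 853 genes had a called interaction (382 higher, 471 lower), 851 of them among the 2649. LPS in normal M-CSF then changed 2594 genes, the medium 3327 with LPS and 2969 without, and the genotype difference 1. With library totals alone, 658 were higher and 2688 lower, while higher interactions outnumbered lower ones with RLE size factors and with DESeq2. The genotype difference counted 733 genes with DESeq2 and 178 with a replicate block. Fits that each leave out 1 WT library called 2315 to 2592 interactions (1009 to 1145 higher, 1306 to 1447 lower). They called 6527 to 6977 genes for LPS in low and 3596 to 4147 in normal M-CSF, 4501 to 5224 for the medium with LPS and 4376 to 5081 without, and 194 to 407 for the genotype difference. The other counts over all genes tested stayed within 1.5 times, which does not cover the counts of the lists. Of the 108 called genes looked at singly, 79 passed in every setting run and none reversed. Reversals touched only genes with no call. Cxcl10 ranged over -1.01 to 0.12, Nos2 over -0.73 to 0.67 and Trem2 over -0.16 to 0.019 when 1 library was left out. Nos2 was -1.99 after thinning and -0.23 with library totals alone, where Apoe was -0.0728 and Ccnd1 -0.15. Trem2 was 0.0363 with DESeq2 and 0.0363 with RLE size factors. The cause of these changes was not tested. Depth limits the unstimulated levels under about 1 CPM.

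Medians of the lists for LPS sensing, colony-stimulating factor outputs and apoptosis were below 0 with library totals alone.

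Replicate numbers are shared across groups, and the values below do not settle whether they pair the libraries. Same-numbered libraries of 2 WT groups correlated at -0.26 to 0.33 in their deviations from the group means. The correlation was over 0.1 in 6 of 24 pairs, and in 6 of 24 the 2 libraries were each other's best match. Pairs with a library of low M-CSF with LPS lay between -0.26 and 0.0436. With the replicate block 2361 interactions were called.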

Other observations

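The following genes were chosen after their values were seen. They stand for no gene group. The first 5 had higher interactions. Mt1, a metallothionein, averaged 472 ± 114 CPM with LPS and 189.7 ± 32.5 CPM without LPS in low M-CSF, against 248 ± 39.2 and 276 ± 49.2 CPM in normal M-CSF (SD, n = 4 each), an interaction of 1.47 ± 0.28 (SE), adjusted p = 0.00018 by edgeR. Slc39a14, a zinc importer, averaged 125 ± 19.4 and 5.09 ± 3.91 CPM in low M-CSF with and without LPS, against 67.8 ± 13.7 and 18.9 ± 1.96 CPM in normal M-CSF, at 2.76 ± 0.37 (SE), adjusted p = 1.44e-06. Stat5a, a transcription factor of cytokine receptors, averaged 209 ± 35.7 and 17.4 ± 3.05 CPM in low M-CSF, against 38.2 ± 8.17 and 23.7 ± 7.69 CPM in normal M-CSF, at 2.90 ± 0.31 (SE), adjusted p = 9.76e-09. Bcl6, a transcriptional repressor, rose with LPS in low M-CSF (90.2 ± 15.4 CPM with LPS, 54.5 ± 8.35 CPM without) and fell in normal M-CSF (13.6 ± 2.91 CPM with LPS, 56.7 ± 9.36 CPM without), at 2.79 ± 0.25 (SE), adjusted p = 2.19e-10. Cdkn1a, the cell cycle inhibitor p21, averaged 8118 ± 1411 and 847 ± 256 CPM in low M-CSF, against 2623 ± 343 and 727 ± 64.4 CPM in normal M-CSF, at 1.41 ± 0.29 (SE), adjusted p = 0.000401, with an adjusted p of 0.0606 for summed pairs.

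Another 10 genes chosen in the same way were highest without LPS in low M-CSF and had lower interactions. The receptors Cxcr4, Gpr65, Gpr34 and S1pr1 averaged 151, 379, 32.4 and 147 CPM there, with interactions of -2.44 ± 0.54, -2.83 ± 0.28, -3.06 ± 0.70 and -1.59 ± 0.33. Sesn1, Trp53inp1, Txnip and Foxo3 averaged 105, 115, 697 and 32.9 CPM there, with interactions of -2.93 ± 0.36, -2.97 ± 0.47, -1.31 ± 0.22 and -2.15 ± 0.42. Zfp36l1, an RNA-binding protein of mRNA decay, averaged 76.6 ± 12.9 and 994 ± 200.3 CPM in low M-CSF with and without LPS, against 90.8 ± 15.5 and 192 ± 29.6 CPM in normal M-CSF, at -2.62 ± 0.31 (SE), adjusted p = 1.51e-07. Slc43a2, an amino acid transporter, averaged 62.2 ± 5.67 and 1169.7 ± 90.2 CPM in low M-CSF, against 94.2 ± 2.97 and 248 ± 51.3 CPM in normal M-CSF, at -2.83 ± 0.25 (SE), adjusted p = 2.15e-10.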
